A study of Rattus norvegicus with 8 samples.

Results

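The genes Hecw1, Misp3, Mcrip1, Foxe1, Crhr2 and Glycam1 were examined in rat liver, although none of them is a gene that liver is known for. Their array signals were bright in rats given Eucommia ulmoides leaf extract and higher there than in control rats. The genes are 6 of 25123 features tested, and the array carries them on 8 of its 41012 probes, in 17 of 43379 non-control spots. Other features, some of them probes without a gene name, had differences as large. The members were chosen on the difference between the groups in these arrays, so that difference is described here and not tested. All rats were male Wistar/ST rats that received a fat-rich diet with fructose-rich water for 5 weeks. The Eucommia group (4 arrays) also drank an extract of the leaves of Eucommia ulmoides, a tree whose leaves are brewed as tea, and the Control group (4 arrays) did not. Ages and doses are not given in the sources used here. RNA was labelled with Cy3 from 500 ng per array.

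The 6 genes have unrelated known functions. Hecw1 encodes a ubiquitin ligase of the NEDD4 family, enzymes whose HECT domain passes ubiquitin to a substrate, and is best known from the nervous system. Mcrip1 encodes a small protein that binds the corepressor CtBP and whose binding is regulated by the kinase ERK, as described in human and mouse cells. Foxe1 is a forkhead transcription factor of the thyroid, needed for the formation of that gland. Crhr2 is a receptor on the cell surface for the urocortins, stress-related peptides, and raises cyclic AMP. Glycam1 encodes a mucin-like protein secreted by high endothelial venules of lymph nodes, where it carries sugars bound by L-selectin on lymphocytes, and it is also a milk protein. Misp3 is named as a relative of Misp, an actin-bundling protein of dividing cells.

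The stretch around the transcription start, from 250 bases before to 50 after, was available from RefSeq (assembly GRCr8) for 5 of the 6 genes, all but Foxe1. Those of the genes with the largest differences are shown, so that genes whose signals moved together can be compared. Capitals mark matches, on either strand, to the 5 motifs searched: TATAAA (the TATA box core), CCAAT (the CCAAT box), GGGCGG (the GC box), CACGTG (an E-box) and AGGTCA (a nuclear receptor half-site). No matches overlapped in the stretches printed.
Glycam1, chr7:136561250-136561549, minus strand: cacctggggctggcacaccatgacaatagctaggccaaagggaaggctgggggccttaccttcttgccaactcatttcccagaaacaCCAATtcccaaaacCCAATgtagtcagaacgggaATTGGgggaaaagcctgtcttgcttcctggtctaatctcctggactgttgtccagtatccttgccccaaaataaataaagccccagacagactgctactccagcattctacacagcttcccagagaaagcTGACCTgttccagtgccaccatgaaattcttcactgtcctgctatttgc
Hecw1, chr17:55368061-55368360, plus strand: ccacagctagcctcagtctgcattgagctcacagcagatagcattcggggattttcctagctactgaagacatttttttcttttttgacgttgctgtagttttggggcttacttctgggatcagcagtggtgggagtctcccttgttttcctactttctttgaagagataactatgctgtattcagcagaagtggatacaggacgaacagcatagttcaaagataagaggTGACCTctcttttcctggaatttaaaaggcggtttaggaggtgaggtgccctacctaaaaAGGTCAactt
Misp3, chr19:41044545-41044844, plus strand: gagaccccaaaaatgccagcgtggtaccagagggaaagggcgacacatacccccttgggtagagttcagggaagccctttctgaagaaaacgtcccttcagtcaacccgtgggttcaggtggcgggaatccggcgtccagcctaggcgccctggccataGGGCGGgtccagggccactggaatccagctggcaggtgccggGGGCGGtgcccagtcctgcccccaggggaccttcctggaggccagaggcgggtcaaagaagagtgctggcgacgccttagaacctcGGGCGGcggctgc
In these, Glycam1 held 3 matches to CCAAT, with first bases at -163, -149 and -129 from the transcription start, and an AGGTCA match at 2. Hecw1 held AGGTCA at -20 and 41, and Misp3 held GGGCGG at -91, -49 and 38. No motif was found in more than 2 of the 5 genes. CCAAT was found in 2 of 5 against 37.5% of all 33469 promoter stretches, GGGCGG in 2 of 5 against 33.1%, AGGTCA in 2 of 5 against 16.2%, TATAAA in 1 of 5 against 14.2%, and CACGTG in 0 of 5 against 6.42%. GC content was 50% for Glycam1, 44% for Hecw1 and 65% for Misp3, against a median of 51.7% over all stretches.

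Arrays of each group lay on a slide of their own and each slide was scanned in its own session, so the effects of group, slide and scan cannot be told apart. The share of non-control spots well above background was 70.7% ± 1.16 on Eucommia arrays and 59.8% ± 1.17 on Control arrays (SD, n = 4 each). Of the features tested, 24.6% were called by limma at an adjusted p under 0.05 (18.4% higher and 6.17% lower in the Eucommia group), and at 28.5% the groups did not overlap (at 19.8% with all Eucommia arrays above all Control arrays). Higher features were 74.9% of those called, and 62.8% among probes above background on all arrays, 59.7% after normexp, 58.8% after quantile normalization and 42.2% with no filter on dim probes. With median centring they were 31.9%, and this centring moved the median log2 difference of all features to -0.24, against 0.02 with the 75th percentile. Among features with a mean signal above the arrays' 75th percentile 3.75% were called higher and 5.99% lower, against 26.5% higher and 6.26% lower among dimmer ones. The liver label fitted its markers, since all 10 hepatocyte genes listed were above background on all 8 arrays. Whether each array came from a different rat is not stated, and the spread may therefore be partly technical.

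Signals are processed intensities in linear units. On the log2 scale they are given relative to each array's 75th percentile, so that 0 is the signal at that percentile and each unit is a doubling. Among the 8969 features with a mean log2 signal above 0, Hecw1 had the largest difference between the groups and Misp3 the next, with Mcrip1 at rank 5, Foxe1 at rank 13 and Crhr2 at rank 21. A log2 difference of 2 or more was found for 6 of those 8969 features (0.0669%), Hecw1, Misp3 and Mcrip1 among them, and for 3.05% of all features. Other named genes lay between them, among them Cav3 at 2.23, Or6z1 at 1.86, Rbm38 at 1.85, Ctrb1 at 1.79 and Cdh17 at 1.75. Cdh17 varied widely within groups, with an SD of 1.37 in the Eucommia group and 2.60 in the Control group. Glycam1 does not belong to the bright features by its mean, which was -1.12. Over all 25123 features its difference ranked 2, that of Hecw1 11, Misp3 210, Mcrip1 495, Foxe1 1032 and Crhr2 1250.

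**Figure D1:**
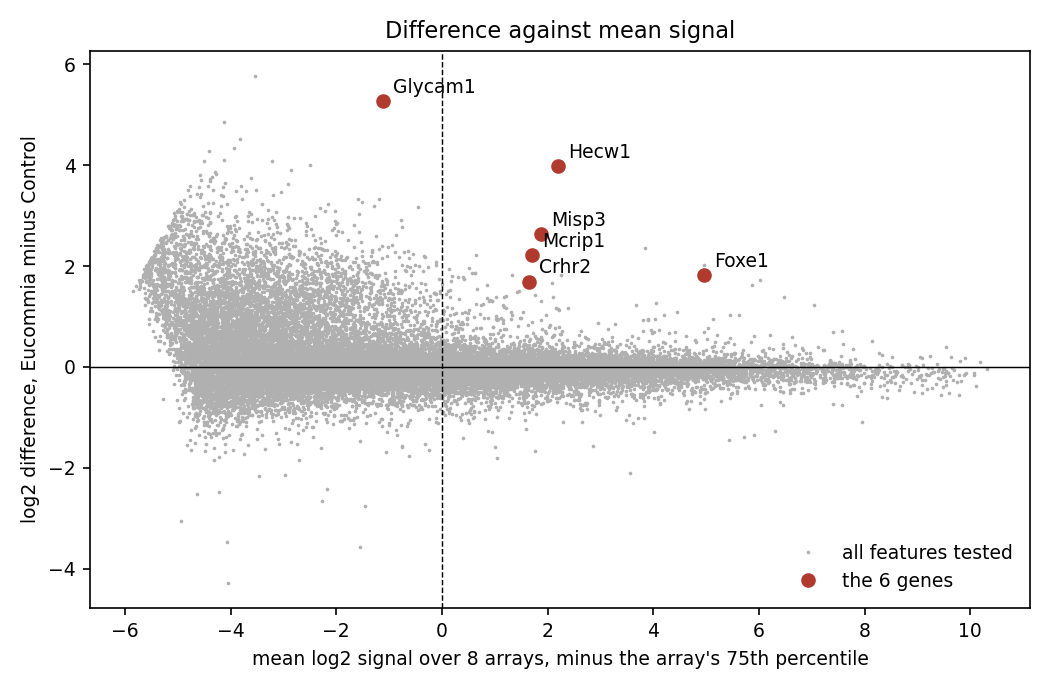
Log2 difference (Eucommia minus Control) against the mean log2 signal of the 8 arrays relative to the 75th percentile, with each grey point a feature tested and the 6 genes in red. Hecw1, Misp3, Mcrip1, Crhr2 and Foxe1 lie right of 0 at differences from 1.69 to 3.98, where most features lie near 0, while Glycam1 lies left of 0 at 5.27.

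Hecw1 was measured by 3 probes that did not behave alike. Its bright probe, A_44_P342438, read 4230.3, 3795, 4336 and 4242 on the Eucommia arrays, against 312, 262, 329 and 251 on the Control arrays. All Eucommia arrays lay far above all Control arrays, and the arrays of a group lay close together. The log2 signal was 4.18 ± 0.10 in the Eucommia group and 0.20 ± 0.22 in the Control group (SD, n = 4), a log2 difference of 3.98, or 15.8-fold. On Eucommia arrays 7.17% of features were brighter than this probe, and on Control arrays 33.8%. The other probes carry the same transcript accession in the files. A_44_P245950 read between 1.19 and 1.29 on the Eucommia arrays and between 2.89 and 7.73 on the Control arrays, and A_43_P20819 between 1.43 and 1.60 on the Eucommia arrays and between 2.63 and 5.26 on the Control arrays. Neither was well above background on any array, so no fold is given for them. The large signal of Hecw1 is thus that of 1 probe of 3. The lowest signal of any non-control spot was 1.14 to 1.20 on Eucommia arrays and 2.22 to 2.73 on Control arrays. The mean over all 3 probes, an alternative added after seeing the data, had a log2 difference of 0.35. That mean takes in the probes not above background and is therefore no estimate for the gene.

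Misp3 and Mcrip1, each with 1 probe and 1 spot, were at similar levels. Misp3 read 2726, 2233, 1649 and 1873 on Eucommia arrays, against 361, 412, 349.6 and 347 on Control arrays. Mcrip1 read 2449.9, 1736, 1343 and 1147 on Eucommia arrays, against 404, 387, 334 and 376 on Control arrays. The groups did not overlap for either gene, and for both the first Eucommia array was the highest. The log2 signal of Misp3 was 3.19 ± 0.28 in the Eucommia group and 0.56 ± 0.22 in the Control group (SD, n = 4), a difference of 2.63 or 6.20-fold. That of Mcrip1 was 2.81 ± 0.43 in the Eucommia group and 0.59 ± 0.12 in the Control group (SD, n = 4), a difference of 2.22 or 4.67-fold. Mcrip1 had the widest spread of the 6 genes among Eucommia arrays, with log2 signals from 2.39 to 3.36.

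Foxe1 was the brightest of the 6 genes in both groups. Its probe read 16259, 13533, 12245 and 11564 on Eucommia arrays, against 4450.2, 5055, 3751 and 3367 on Control arrays. No Control array reached the lowest Eucommia array. The log2 signal was 5.86 ± 0.17 in the Eucommia group and 4.04 ± 0.32 in the Control group (SD, n = 4), a difference of 1.82 or 3.53-fold. Only 7.83% of features were brighter than this thyroid gene on Control arrays, and 2.65% on Eucommia arrays, so a strong signal was also present without the extract.

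Glycam1 had the largest difference and the lowest levels. Its probe read 834, 496, 606 and 720.5 on Eucommia arrays, against 11.9, 17.1, 26.7 and 21.4 on Control arrays. It was well above background on 4 of 4 Eucommia arrays and on 3 of 4 Control arrays, the first Control array being the one where it was not. The log2 signal was 1.51 ± 0.31 in the Eucommia group and -3.75 ± 0.59 in the Control group (SD, n = 4), a difference of 5.27 or 38.6-fold. With normexp background correction the difference was 3.23. The label of a bright gene therefore holds for Glycam1 on Eucommia arrays, where 22.3% of features were brighter, and not on Control arrays, where 79.7% were.

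**Figure D2:**
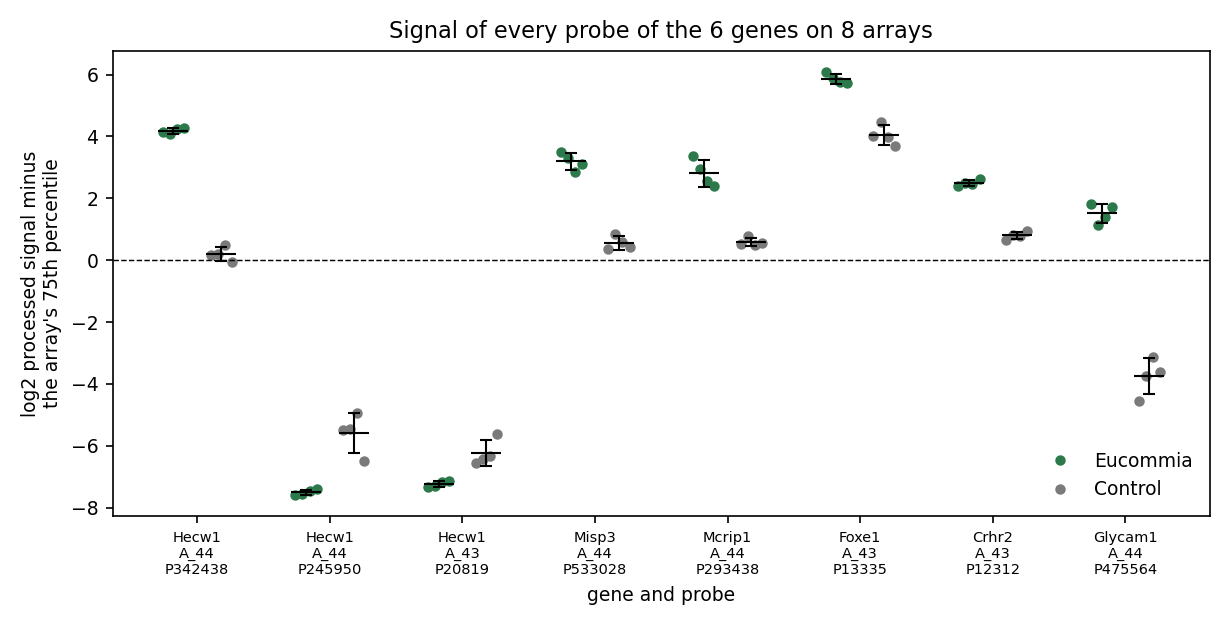
Log2 processed signal minus the array's 75th percentile for each of the 8 probes of the 6 genes, with Eucommia arrays (green) left of Control arrays (grey), 1 point per array, and bars for mean and SD of 4 arrays. In 6 probes the Eucommia arrays lie above the Control arrays, and in the other Hecw1 probes, not above background on any array, both groups lie under -4.

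Crhr2 was the only one of the genes with repeated spots, 10 of the same probe spread over each array. Averaged over spots it read 1270.2, 1264, 1251 and 1351 on Eucommia arrays, against 434, 403.3, 403.0 and 499 on Control arrays. The groups did not overlap, and the arrays of each group lay close together. The log2 signal was 2.49 ± 0.09 in the Eucommia group and 0.80 ± 0.13 in the Control group (SD, n = 4), a difference of 1.69 or 3.23-fold.

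The 10 Crhr2 spots differed in the size of their difference. The spot in row 48 of the grid read 1795, 1857, 1849 and 1818 on Eucommia arrays, against 391, 379, 370.3 and 496 on Control arrays, a 4.92-fold difference. The spot in row 368 read 710.0, 724, 844 and 900.4 on Eucommia arrays, against 468, 407, 414 and 515 on Control arrays, a 1.92-fold difference. These spots hold the same probe on the same arrays, and at both the groups did not overlap. The 4 spots in rows up to 162 had log2 differences from 2.06 to 2.30, and the 6 from row 316 on had differences from 0.94 to 1.74. On single Eucommia arrays the brightest spot was 2.16 to 2.56 times the dimmest, and on Control arrays 1.35 to 1.45 times. Every one of the 10 spots was brighter on average in the Eucommia group.

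**Figure D3:**
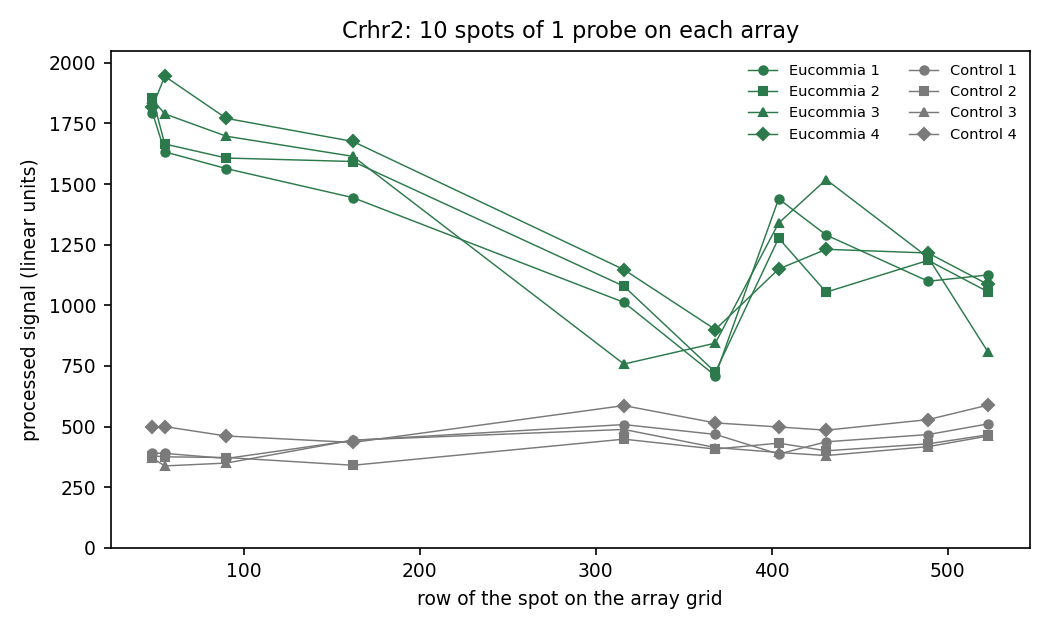
Processed signal (linear units) of the 10 Crhr2 spots against the row of the spot on the array grid, with 1 line per array, Eucommia green and Control grey, and outlier-flagged spots included. On Eucommia arrays the spots in rows 48 to 162 were the brightest, and those in rows 316 and 368 among the dimmest. The Control lines vary less and are on average slightly higher from row 316 on.

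This spread was compared with that of other repeated probes. The array holds 263 probes with 10 spots each, of which 171 were above background on all 8 arrays. The SD of the log2 signal over spots, averaged over 4 arrays, was 0.43 for Crhr2 on Eucommia arrays, the highest of the 171 probes, with the next at 0.28 and a median of 0.07. On Control arrays the SD of Crhr2 was 0.15, rank 23 of 171, against a median of 0.05. The highest and lowest of its 10 spot differences were 1.35 log2 units apart, the widest of the 166 of these probes that had a value for every spot, with the next at 0.97 and a median of 0.17. What the position of these spots had to do with their signal was not tested.

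**Figure D4:**
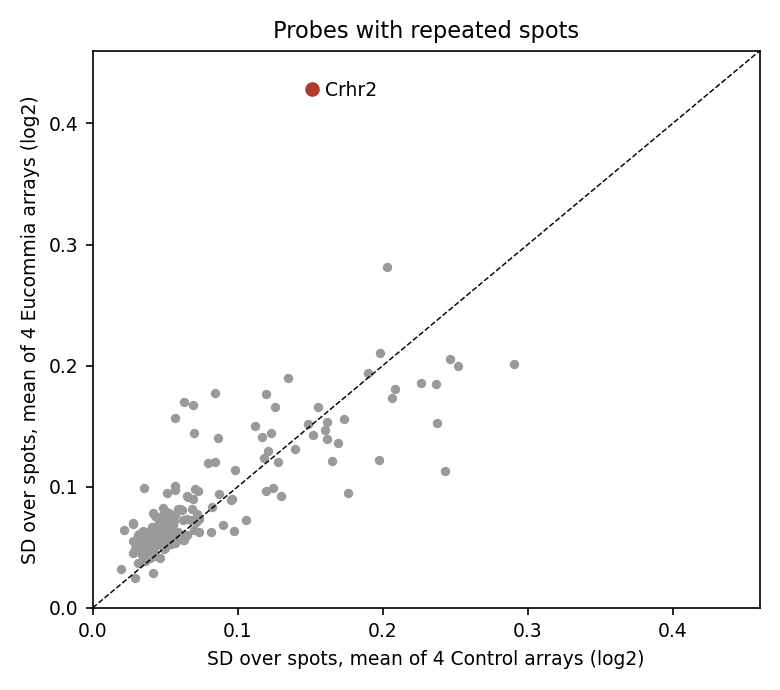
SD of the log2 signal over 10 spots of a probe, as the mean of 4 Eucommia arrays (vertical) and of 4 Control arrays (horizontal), for the 171 repeated probes above background on all arrays. The dashed line marks equal spread. Crhr2, in red, stands alone at 0.43 on Eucommia arrays and 0.15 on Control arrays.

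The spots next to those of the 6 genes were read in the same way. Adjacent non-control spots were those within 1 row and 1 column. Around the Glycam1 spot, 6 such spots above background on at least 4 arrays had log2 differences from -0.31 to 0.55. Around the bright Hecw1 spot 6 ran from -0.68 to 1.51, around Misp3 4 ran from -0.60 to 0.20, around Mcrip1 4 from -0.65 to 0.25, and around Foxe1 4 from -0.68 to 1.08. Around the 10 Crhr2 spots 58 ran from -1.41 to 2.20, the highest beside the spot in row 431, whose own difference was 1.61.

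Of 8 other NEDD4-family ligases 5 could be tested, with 1 higher, 0 lower and a median log2 difference of -0.03. Over all features 18.4% were higher and 6.17% lower. All 5 had a mean signal above the 75th percentile, and of such features 3.75% were higher and 5.99% lower. Wwp2, a ligase of that family, was 0.73 ± 0.07 in the Eucommia group and 0.33 ± 0.19 in the Control group (SD, n = 4), a difference of 0.40 (limma, adjusted p = 0.0292). Nedd4 (-0.09) and Smurf2 (0.05) did not pass, except Nedd4 as lower with median centring (-0.35), and Hecw2, the closest relative, was well above background on 2 Eucommia arrays and on 0 Control arrays and was not tested. Wwp2 passed in 2 of 8 fits that left 1 array out, not without Eucommia replicate 1, 2 or 3 or Control replicate 2, 3 or 4. It had 0.14 with median centring and did not pass, nor did it with the replicate number as a block (adjusted p by limma 0.0512). Of 5 partners and substrates described for human HECW1, 4 were tested, with a median log2 difference of 0.05. The superoxide dismutase Sod1 (0.03) and Dvl1 (0.08), of Wnt signalling, did not pass.

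Of 6 genes of the Misp list 5 were tested, with 1 higher and a median of 0.02, where 18.4% of all features were higher. Plk1, a kinase of mitosis, was -1.59 ± 0.11 in the Eucommia group and -2.03 ± 0.23 in the Control group (SD, n = 4), a difference of 0.44 (limma, adjusted p = 0.0351). It passed in 1 of 8 fits that left 1 array out (the one without Control replicate 2), and not with quantile normalization (0.29), cyclic loess (0.34), median centring (0.18) or normexp (0.14). Cdk1 (-0.54), the kinase that drives mitosis, and Mapre1 (-0.26), a microtubule end protein, did not pass, except Mapre1 as lower with median centring (-0.52). Misp itself was not above background on any array. Of 8 Mcrip1-related genes 7 were tested, with 0 higher, 0 lower and a median of -0.10. By limma, 2 of the 7 had an unadjusted p under 0.05, named here after their values were seen: Ddx6, an RNA helicase (-0.55), and Ctbp2, a corepressor (-0.46). Ddx6 passed as lower with median centring (-0.81), as the mean over probes (-0.56), and without Eucommia replicate 1 (-0.69) or Control replicate 4 (-0.71). Ctbp2 passed as lower with median centring (-0.72), quantile normalization (-0.72) and cyclic loess (-0.69), and without Eucommia replicate 2 (-0.59). Mcrip2, the sister gene, had 0.40 and Ctbp1, the other corepressor, -0.16, and neither passed, except Ctbp1 as lower with median centring (-0.42).

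Of the genes that act with Crhr2, 3 of 8 could be tested and 2 were called higher. Ucn, the ligand urocortin, was at log2 signals of -0.86, -0.69, -0.98 and -1.09 on Eucommia arrays, against -3.40, -2.47, -2.66 and -2.68 on Control arrays. The groups did not overlap, and the difference was 1.90 ± 0.20 (SE; limma, adjusted p = 0.000129). It passed in all 18 alternatives, with 0.76 as the smallest difference. Crhbp, which binds these peptides, had a log2 signal of -4.57 in the Eucommia group and -6.20 in the Control group. It was well above background on 4 Eucommia arrays and on 0 Control arrays, so it entered the test only through the Eucommia group, and no fold is given because its Eucommia signal lay under the dimmest signals well above background on Control arrays. Its call was lost with normexp (adjusted p by limma 0.0551). Pomc, the pituitary hormone precursor, had 0.12 and did not pass. Crh and Ucn2 were not above background on any array, and the sister receptor Crhr1 was on 3 Eucommia arrays and 0 Control arrays and was not tested. Ucn and Crhbp were dim, and 26.5% of such features were called higher.

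Thyroid genes were listed because Foxe1 is one. Of 11 listed 5 were tested, with 1 higher, 1 lower and a median of -0.12. Over all features 18.4% were higher and 6.17% lower, and of dim ones 26.5% were higher. Nkx2-1, a transcription factor of thyroid and lung, was -2.69 ± 0.48 in the Eucommia group and -4.24 ± 0.42 in the Control group (SD, n = 4), a difference of 1.55 (limma, adjusted p = 0.00292). It was above background on 4 of 4 Eucommia arrays and 2 of 4 Control arrays, so it entered the test through the Eucommia group. Its smallest difference under the alternatives was 0.43. Iyd, a deiodinase that is also known in liver, was lower by -0.58 on the log2 scale (limma, adjusted p = 0.0116). Tg, the thyroid hormone precursor, had 0.80 (adjusted p = 0.0519 by limma) and passed without Control replicate 2 (1.03) and with the percentile taken over probes above background on all arrays (0.83). Hhex, shared by liver and thyroid, had -0.12 and passed as lower without Control replicate 3 (-0.66). Pax8, Tshr and Duox2 were not above background on any array, and Slc26a4 on 1 Control array and 0 Eucommia arrays. The summed linear level of the 5 tested genes, as a multiple of the 75th percentile, ran from 43.9 to 55.1 on Eucommia arrays and from 21.5 to 93.0 on Control arrays. Without Hhex it ran from 3.85 to 5.62 on Eucommia arrays and from 6.38 to 7.21 on Control arrays, most of it Iyd, so the sum is mainly of genes that liver also expresses and does not measure thyroid RNA. The part of thyroid RNA in the Foxe1 signal was not tested beyond these levels, and in whole liver fewer cells of a type and less RNA per cell cannot be told apart.

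High endothelial venules are the known source of Glycam1. Of 13 genes listed for them 8 were tested, with 0 higher and 1 lower and a median of -0.05, where 18.4% of all features were higher and 6.17% lower. The summed level of these 8 ran from 14.2 to 16.1 on Eucommia arrays and from 14.3 to 17.6 on Control arrays. Most of that was Ltbr, a widely expressed receptor named here for its share of the sum, and without it the sum ran from 4.19 to 4.63 on Eucommia arrays and from 4.45 to 5.67 on Control arrays. The lower gene, Emcn, an endothelial mucin, had -0.58 (limma, adjusted p = 0.0308). It did not pass without Eucommia replicate 1, 3 or 4 or Control replicate 1 or 4, nor with the replicate number as a block (adjusted p by limma 0.0811). Ccl21, a chemokine of these vessels, had 0.01 and did not pass, and Fut7, which builds the sugar for L-selectin, had 0.44 and passed only without Control replicate 2 (0.67). Fut7 was above background on 4 Eucommia arrays and 1 Control array, so it entered the test through the Eucommia group. Madcam1 was not above background on any array, and Chst4, which adds sulfate to this ligand, was on 1 Eucommia array.

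Of 8 lymphocyte genes 4 were tested, with 2 higher and a median of 0.46, where 18.4% of all features and 26.5% of dim ones were higher. Cd3d, of the T cell receptor complex, had 0.85 (limma, adjusted p = 0.000728), and Ccr7, a homing receptor, 1.15 (limma, adjusted p = 0.00940). The mean signal of Cd3d lay above the 75th percentile, and 3.75% of such features were called higher. Ccr7 was above background on 4 Eucommia arrays and 1 Control array, so it entered the test through the Eucommia group. It had no call under normexp (0.13). Cd79b of B cells (0.08) and Cd3e (-0.53), also of the T cell receptor complex, did not pass. The summed level of these 4 ran from 1.80 to 2.08 on Eucommia arrays and from 0.979 to 1.26 on Control arrays, and without Cd3d from 0.183 to 0.231 on Eucommia arrays and from 0.132 to 0.224 on Control arrays. Of 7 milk genes only Csn2, which encodes beta-casein, could be tested. Its log2 signals were 0.14, 0.22, 0.29 and 0.20 on Eucommia arrays, against -1.18, -1.03, -0.88 and -1.01 on Control arrays. It was higher by 1.24 ± 0.09 (SE; limma, adjusted p = 1.88e-05), while Csn1s1, Csn1s2a, Csn3, Wap and Lalba were not above background on any array.

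Markers of other tissues were looked at for the same reason. Of 10 pancreatic acinar genes 6 were tested and 3 were higher, against 18.4% of all features and 26.5% of dim ones. Ctrb1, a protease precursor, was higher by 1.79 (limma, adjusted p = 3.88e-05). The mean signal of Ctrb1 lay above the 75th percentile, where 3.75% of features were called higher. Cela2a, an elastase, was higher by 1.11 (limma, adjusted p = 5.57e-05), with 0.24 as its smallest difference under the alternatives. Cel, a lipase, was higher by 0.62 (limma, adjusted p = 0.00669, and 0.0524 with normexp). Cpb1 had -0.21 and did not pass. Prss1 and Clps were not above background on any array, and the summed level of the 6 ran from 2.45 to 3.62 on Eucommia arrays and from 1.38 to 1.60 on Control arrays. Without Ctrb1 it ran from 0.719 to 1.18 on Eucommia arrays and from 0.739 to 0.844 on Control arrays. Of 8 muscle genes 1 was tested, Tnni2, higher by 0.79 (limma, adjusted p = 0.000182), while Acta1, Ckm, Myh1, Myh4 and Tnnt3 were not above background on any array. Of 10 hepatocyte genes 0 were higher and 1 lower, where 3.75% of features with a mean signal above the 75th percentile were higher and 5.99% lower. The lower gene was Tf, the iron carrier of plasma, at -0.55 (limma, adjusted p = 0.00702). Alb (-0.17) and Ttr (-0.27) did not pass, except with median centring, where they were -0.43 and -0.53. The summed hepatocyte level was 4703 to 5556 on Eucommia arrays and 5302 to 6043 on Control arrays. The part of other tissues in the signals of the 6 genes was not tested.

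The nearest protein-coding genes, up to 2 on each side of each member in the RefSeq gene table, were set beside them. Of 24 neighbours 14 were tested, with 2 higher, 1 lower and a median of 0.05, against 24.6% of all features called. Ppp1r27, a phosphatase regulator beside Mcrip1, was at -1.26, -1.05, -1.14 and -1.14 on Eucommia arrays, against -3.62, -3.48, -2.80 and -2.85 on Control arrays, a log2 difference of 2.04 (limma, adjusted p = 7.10e-05). The smallest difference of Ppp1r27 under the alternatives was 0.92. Pde1b, a phosphodiesterase beside Glycam1, had -2.04 ± 0.02 in the Eucommia group and -3.95 ± 0.40 in the Control group (SD, n = 4), a difference of 1.90 (limma, adjusted p = 7.31e-05). It was above background on 4 Eucommia arrays and 2 Control arrays, so it entered the test through the Eucommia group. Its smallest difference under the alternatives was 0.46. Ggps1, a prenyl diphosphate synthase beside Hecw1, had -0.49 (limma, adjusted p = 0.00742). Psma2 (-0.12), a proteasome subunit beside Hecw1, and Gcgr (-0.12), the glucagon receptor beside Mcrip1, did not pass, except with median centring, where both were -0.38. All 4 tested neighbours of Foxe1 did not pass, and none of those of Misp3 could be tested.

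The named genes most like each member over the 8 arrays were found by Pearson correlation across 9960 genes, which with these groups mainly reflects the gap between them. They were Vom2r47 and Galntl6 for Hecw1 (r = 0.998 and 0.997), Adra2b and Or11a4 for Misp3 (0.997 and 0.996), Arl4d and Tead3 for Mcrip1 (0.995 for both), and Cldn18 and Pglyrp1 for Foxe1 (0.992 and 0.990). For Crhr2 they were Prtn3 and Syn1 (0.999 for both), and for Glycam1 Or4c103 and Chit1 (0.998 and 0.997). The 8 points share 2 slides, and all of these genes were dimmer than the member they resembled on Eucommia arrays. Cldn18, a tight junction gene, had a log2 difference of 2.38, and Prtn3, a neutrophil protease, 1.97.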

How the data were processed

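Liver RNA of 8 samples was hybridised to 8 Agilent 1-colour arrays. Per the file headers, the deposited intensity values come from Feature Extraction 10.1.1.1, Agilent's scanner software. The processed signal is background-subtracted and detrended within the array, per the file headers. Deposited flags, of another kind than intensities, mark control, saturated, outlier and well-above-background spots. The series table deposited by the authors held the same processed signals, at 100% of the 43379 non-control spots of each array (relative tolerance 1e-05), on a linear scale without centring. Medians of its columns lay between 26.3 and 32.0.

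After taking log2, each array's 75th percentile was subtracted, and control and outlier spots were left out. No non-control spot was saturated. Spots of a probe were averaged. A probe was kept if well above background, on a share of at least 0.5 of its spots, on at least 4 of 8 arrays, which left 27718 of 41012 probes. Accessions matched the RefSeq table of assembly GRCr8 for 16336 probes. The array design uses rn4. The brightest probe stands for a gene, and probes without a name were kept singly. The comparison used limma 3.58.1 in R 4.3.3, 2-sided, with Benjamini-Hochberg adjustment over 25123 features and a threshold of 0.05. The fit was tested on simulated data. The number of arrays limits the precision.

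The members and the lists were chosen with earlier results of these data known. Some genes are not reported here. Named are the 6 members, up to 4 called and 2 other genes of each list, bright genes ranked among the members and the 2 most alike genes of each member. Alternatives were other scalings, normexp (offset 50, on spot medians), the series table, other filters, the mean over probes, a replicate block and leaving out each array. Cyclic loess and the mean over dim probes were added after seeing the data.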

Additional observations from a re-analysis of the deposited data

Results flagged for a closer look

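Among 100 sets of 4 arrays examined (each probe of the 6 genes and each named list gene in each group), 4 had 1 array apart from the other 3, and chance sets about 1 in 20 apart. Mcrip1 had a log2 signal of 0.77 on Control replicate 2, where the next highest Control array had 0.54. Plk1 had -1.43 on Eucommia replicate 2, with the next at -1.64. Ttr had 9.75 on Control replicate 2, with the next at 9.65, and Alb had 9.80 on Control replicate 1, below the other 3.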

How the results depend on the processing

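All 6 genes kept a positive log2 difference under all alternatives run. Without 1 array the differences ran from 3.90 to 4.08 for Hecw1, 2.53 to 2.75 for Misp3, 2.04 to 2.36 for Mcrip1, 1.71 to 1.97 for Foxe1, 1.64 to 1.74 for Crhr2 and 5.00 to 5.47 for Glycam1. Median centring gave 3.72 for Hecw1, 2.37 for Misp3, 1.56 for Foxe1 and 1.43 for Crhr2. Normexp gave 3.61 for Hecw1, 1.55 for Crhr2 and 3.23 for Glycam1. The mean over all probes gave 0.35 for Hecw1, since its probes not above background enter, and is no estimate for the gene. Of 25123 features 6172 were called, against 11816 with median centring and 4937 to 5733 without 1 array. With no filter on dim probes 12777 of 37707 were called, and 3701 of 20107 among probes above background on all arrays. Of 59 list genes 16 were called, against 27 with median centring and 12 to 18 without 1 array, and 29 of 90 with no filter. Of 14 neighbours 3 were called, against 7 with median centring. Other causes were not tested. Replicate numbers matched the position on the slide, but same-numbered arrays of the groups deviated together at r = -0.10 to -0.03 and do not form pairs. With the replicate block 5143 features, 13 list genes and 3 neighbours were called. Of the named genes' calls, 36 of 750 results under alternatives were lost and 19 gained, and none reversed. Signals near background limit the size of the Glycam1 difference and of dim list genes.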
